A study of Mus musculus with 6 samples.

Results

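The cytosolic ribosomal protein genes, which encode the protein subunits of the ribosome in the cytoplasm, were followed in lineage-negative (Lin-) cells of mouse blast crisis chronic myeloid leukemia (bcCML). Members were the rows whose mouse symbol has the form of a ribosomal protein gene (Rpl or Rps and a number, with Rplp0, Rplp1, Rplp2, Rpsa, Rpl7l1 and Rps27l), that are annotated as protein-coding and whose mean over the 6 libraries reached 1. This gave 80 of the 36083 genes in the table, 48 of the large subunit and 32 of the small subunit. Pseudogenes and the Rps6k kinases were left out. Another 3 protein-coding genes with such names, Rpl10l, Rpl3l and Rpl39l, fell under the minimum, and 6 further rows with such names are annotated as pseudogenes. The minimum decided little, because the member nearest to it, Rpl7l1, had a mean of 139, while Rpl39l had a mean of 0.139.

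The leukemia was made by infecting KLS cells, the stem and progenitor fraction of bone marrow, with retroviruses for BCR-ABL and NUP98-HOXA9, so both groups carry both oncogenes. Donors were WT or Sdc1-/- mice on a B6 background, recipients are labelled NSG, and the Lin- cells were sorted from spleens of mice killed at one time. The Sdc1-/- allele disrupts the signal peptide of syndecan-1, a surface proteoglycan, and the study compared the 2 groups to find the genes that change with its loss. Each group has 3 libraries, and neither the age nor the sex of donors or recipients is given in the labels. A legend of the study describes WT libraries of this kind as technical replicates, and nothing states that those of either group came from separate mice. The SDs and p-values here therefore measure the spread between libraries, which need not include differences between mice. In bulk RNA, fewer cells of a type and less RNA per cell cannot be told apart.

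Sdc1 mRNA, the product of the targeted gene, had values of 1.75, 1.21 and 1.51 in the WT libraries and 3.85, 3.81 and 4.12 in the libraries labelled Sdc1-/-. It was higher in the latter (log2 fold change 0.99, SE 0.09, adjusted p = 0.000118, limma). That fold change is on log2(value + 1), which narrows differences between values as low as these. The mRNA therefore does not check the labels of an allele that alters the protein, and groups are called here by their labels. The Y-linked genes Eif2s3y, Ddx3y, Kdm5d and Uty summed to between 0.276 and 0.308 in WT and between 68.1 and 78.4 in Sdc1-/-. Y-linked transcripts therefore differ with genotype, and sex and genotype cannot be told apart. Transcripts of mature neutrophils, which a Lin- sort is meant to deplete, were lower in Sdc1-/- for 10 of 10 listed genes, with sums of 12670 to 13620 in WT and 4591 to 4734 in Sdc1-/-. Globin and other erythroid genes summed to 9526 to 10230 in WT and 5296 to 5698 in Sdc1-/-. Their part in the results on ribosomal proteins was not tested.

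A ribosome holds one copy of nearly every ribosomal protein, made in the cytoplasm, carried into the nucleolus and assembled there on ribosomal RNA. The mRNAs are short and among the most abundant of a growing cell, and most begin with a C and a run of pyrimidines, the 5′ terminal oligopyrimidine tract, through which mTOR signaling controls their translation. Partial loss of one of many of these proteins causes Diamond-Blackfan anemia, in which the marrow fails to make red cells, and free Rpl5 and Rpl11 bind Mdm2 and stabilize p53.

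The RefSeq starts of members were read in GRCm38.p6, since a shared sequence at the start is what defines the oligopyrimidine class. Windows were found for 60 of the 80 members. A C at the annotated start with at least 4 pyrimidines after it was present in 13 of the 60 (21.7%) and in 3.01% of 27025 genes. Within 5 bases of the start it was present in 29 (48.3%) and in 21.2% of genes. The 10 bases before the start and the 20 from it are shown for members named in the results that follow, with the tract in capitals where it begins exactly at the start.
Rps27 (chr3:90213629-90213658, minus): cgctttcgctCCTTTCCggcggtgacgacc
Rps6 (chr4:86857348-86857377, minus): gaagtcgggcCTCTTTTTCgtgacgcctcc
Rps15a (chr7:118116128-118116157, minus): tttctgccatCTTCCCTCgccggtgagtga
Rplp2 (chr7:141447641-141447670, plus): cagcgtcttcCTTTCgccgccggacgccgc
Rps7 (chr12:28635934-28635963, minus): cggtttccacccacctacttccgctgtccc
Rplp0 (chr5:115559457-115559486, plus): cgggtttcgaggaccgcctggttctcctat
Rpl22l1 (chr3:28805498-28805527, plus): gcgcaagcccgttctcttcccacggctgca
Rpl7a (chr2:26910797-26910826, plus): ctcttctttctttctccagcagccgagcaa
The windows differ in where the annotation sets the start, and the Rpl7a window holds a pyrimidine run across it with no C at the first base. From 250 bases before the start to 50 after it, CCGGAAG, the core of sites for ETS factors such as GABP, was found on either strand in 25 of 60 members (41.7%) and 9.93% of genes. GGGCGG, the core of an Sp1 site, was found in 63.3% of members and 38.2% of genes, and CACGTG, the E-box bound by Myc, in 6 of the 60 members and 8.09% of genes. The median log2 fold change was -0.24 in the 13 members with the tract at the start and -0.21 in the 47 without it. In the 20 members for which no window was found it was -0.26.

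The deposited values are TPM from kallisto, a measure per transcript length that normally gives every library one total. They had been rescaled, and library sums ran from 1048875 to 1058263 in WT and from 944973 to 951815 in Sdc1-/-. The 80 members held 32.6%, 32.0% and 32.2% of the library sum in WT and 30.7%, 29.9% and 29.4% in Sdc1-/-. About this much of the measured mRNA, counted as transcripts, was therefore ribosomal protein mRNA in every library, and the groups did not overlap. The share was 32.3% ± 0.33 (SD, n = 3) in WT and 30.0% ± 0.65 (SD, n = 3) in Sdc1-/-, a difference of -2.29 percentage points that does not depend on scaling between libraries. The small subunit went from 15.2% to 13.9% and the large subunit from 17.0% to 16.05% of the sum. The ratio of the large to the small subunit sums was 1.13, 1.11 and 1.12 in WT and 1.16, 1.14 and 1.16 in Sdc1-/-. Both the small subunit share and this ratio include Rps7, with a mean of 3114 in WT and 933 in Sdc1-/-. How much of that change belongs to Rps7 and how much to a near-identical copy cannot be read from the values. Neither measure was computed without Rps7, so the separation of the groups in this ratio is not shown for the other members.

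Within a library, levels of members spanned a wide range. The median member had values between 4073 and 4218 in WT and between 3305 and 3521 in Sdc1-/-, and 74 of 80 members were above 1000 in all 6 libraries. The 10 most abundant members were Rpl41, Rps14, Rps18, Rpl13a, Rplp1, Rplp0, Rps9, Rps12, Rps29 and Rps2, and the top 10 of a library held between 23.1% and 24.0% of the members' sum. Rpl41, which encodes the shortest protein of the set, was the highest in 5 of the 6 libraries, with 10423, 9376 and 10679 in WT and 9668, 8698 and 8595 in Sdc1-/-. Rps14, a protein at the platform of the small subunit, followed with 9876, 9402 and 9895 against 7913, 7854 and 7716. The groups overlapped for Rpl41 and were apart for Rps14. The members share short coding sequences, with a median of 462 nucleotides (138 to 1257) against 1332 over the 10915 protein-coding genes tested.

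Each gene was tested with limma on log2(value + 1) over all 12155 genes whose mean reached 1, with Benjamini-Hochberg adjustment, and fold changes are on that scale. Of the 80 members, 72 were lower in Sdc1-/- at an adjusted p under 0.05, beside 31.3% of all genes tested. Only Rpl22l1 was higher, beside 29.3% of all genes. The other 7, Rpl41, Rpl27, Rps12, Rpl36, Rps27l, Rpl12 and Rpl7a, did not pass the test. In 69 members all Sdc1-/- libraries were below all WT libraries, beside 34.2% of all genes. The median log2 fold change of the members was -0.24 and that of all genes -0.01. Members lay close together, with quartiles of -0.29 and -0.16, while the quartiles of all genes were -0.24 and 0.23. Of the 48 large subunit members 42 were lower with a median of -0.23, and of the 32 small subunit members 30 were lower with a median of -0.28.

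**Figure D1:**
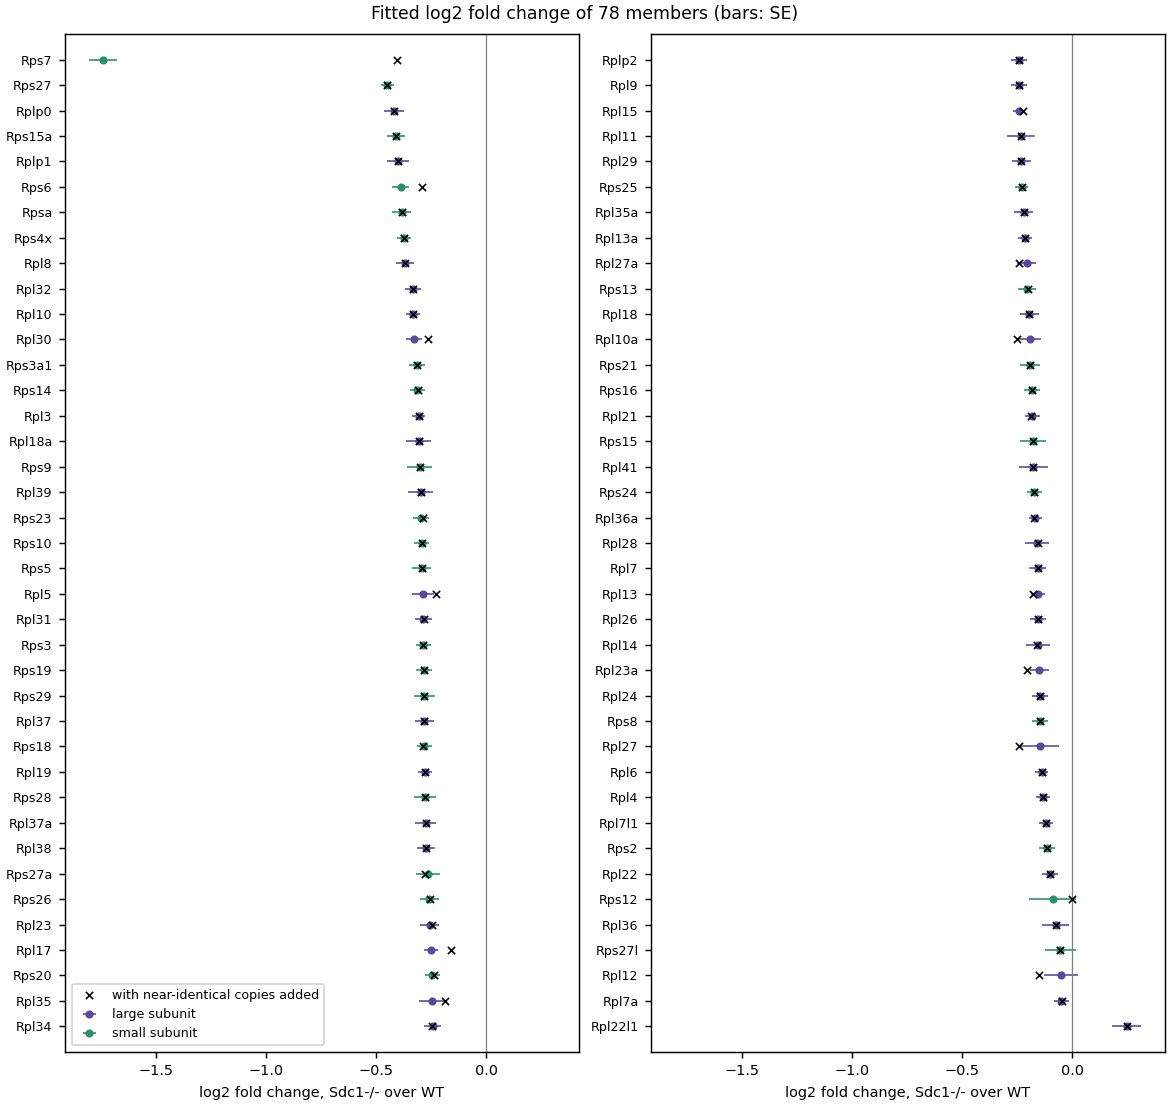
Fitted log2 fold change (Sdc1-/- over WT, on log2(value + 1)) of 78 members in order, with bars for the SE, circles colored by subunit and crosses for the value after near-identical copies were added. All but Rpl22l1 lie below 0, most between -0.35 and -0.1, and Rps7 stands alone at -1.74 until its copies are added (-0.41).

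The size of the fall, and whether one was seen, depended on how libraries were put on one scale. When each library was rescaled to sum to 1000000, the median of all genes moved by 0.13 on the log2 scale, and 38 members were lower and 2 higher (Rpl22l1 and Rpl7a), beside 19.5% and 43.5% of all genes. The median member was then at -0.09, or -0.22 relative to the median of all genes, and with the deposited scaling it was -0.23 relative to that median. Quantile normalization, which gives every library the same distribution of values, left 13 members lower and 6 higher, beside 28.4% and 31.1% of all genes, with a median of -0.0002. It sets the highest values equal between libraries, and members are many of these. Members were thus called lower less often than all genes after this step. Whether the step removes a shift that members share was not tested. Other protein-coding genes whose mean reached 500, members and their copies left out, numbered 159. Of these 79 were lower and 34 higher with the deposited scaling, with a median of -0.11. Rescaled to a sum of 1000000, 46 were lower and 56 higher, with a median of 0.04.

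**Figure D2:**
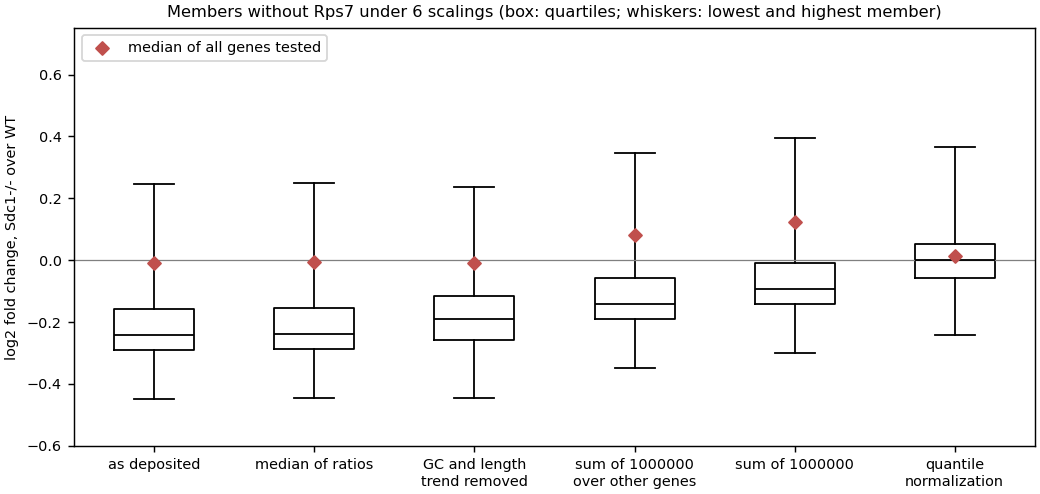
Log2 fold change (Sdc1-/- over WT) of the members without Rps7 under 6 scalings, with boxes for quartiles, whiskers to the lowest and highest member, and diamonds for the median of all genes tested. The members' median lies below the diamond in each, by 0.23 as deposited and by 0.01 after quantile normalization.

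Rps7, a protein of the small subunit that is mutated in some Diamond-Blackfan families, had by far the largest change. It had values of 3078, 3220 and 3043 in WT and of 1021, 921 and 855 in Sdc1-/-. The Sdc1-/- libraries had less than any WT library, with a log2 fold change of -1.74 (SE 0.06, adjusted p = 2.57e-06, limma). Gm6472, annotated as a transcribed processed pseudogene at chrX:152909505-152910155 (minus strand, GRCm38), is a near-identical copy of the Rps7 mRNA. It had values of 2370, 2157 and 2310 in WT and 3017, 3231 and 3153 in Sdc1-/-, so it went the other way (log2 fold change 0.46, SE 0.05, adjusted p = 0.000157). Rps7 itself lies at chr12:28630854-28635953 (minus strand), on the chromosome of Sdc1 (chr12:8771323-8793715) and 19.8 Mb from it.

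The 651 bases of the Gm6472 transcript align without a gap to the Rps7-201 transcript of GENCODE M21 (954 bases) and differ at 4 positions. These are G86A, T133G, G155A and G230T, with the Rps7 base first, the position counted from 1 at the 5′ end of Rps7-201, then the Gm6472 base. The last 3 lie in the Rps7 coding sequence, which starts at position 108. The stretch that holds these 3 is shown because reads of 75 bases can be told apart inside the shared part only where they cross such a base, and the capitals mark the differing bases.
Rps7 (positions 125 to 238): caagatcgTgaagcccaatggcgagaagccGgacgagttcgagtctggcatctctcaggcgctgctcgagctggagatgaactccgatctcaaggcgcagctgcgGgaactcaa
Gm6472 (positions 53 to 166 of its transcript): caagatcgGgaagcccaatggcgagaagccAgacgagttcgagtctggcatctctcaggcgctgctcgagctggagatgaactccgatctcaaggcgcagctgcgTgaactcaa
Of the 31-base words in the Gm6472 transcript, 84.2% also occur in Rps7-201. Of those in Rps7-201, 56.6% occur in the Gm6472 transcript. The share of Rps7 in the sum of both was 56.5%, 59.9% and 56.9% in WT and 25.3%, 22.2% and 21.3% in Sdc1-/-. The sum itself was 5448, 5378 and 5353 in WT and 4038, 4153 and 4008 in Sdc1-/-, lower by 24.6%. With all 3 of its near-identical copies added, Rps7 had a log2 fold change of -0.41 (adjusted p = 2.06e-05), next to Rps15a and Rplp0. How much of the change belongs to either locus cannot be read from these values.

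**Figure D3:**
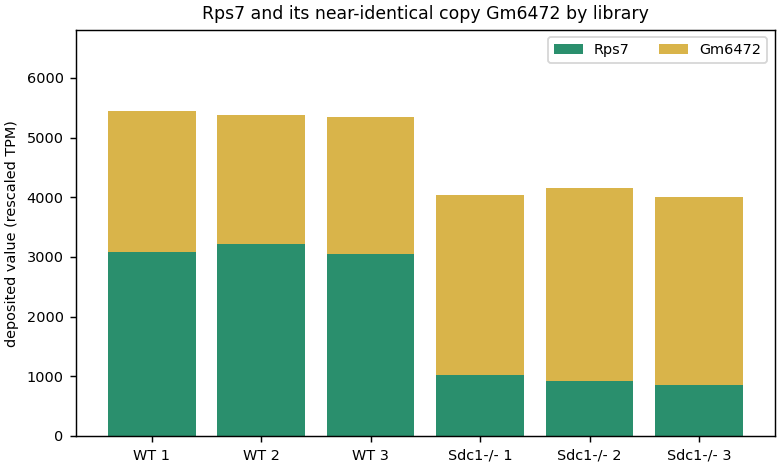
Deposited values (rescaled TPM) of Rps7 and Gm6472 stacked for each library. The total falls from between 5353 and 5448 in WT to between 4008 and 4153 in Sdc1-/-, while the Gm6472 portion rises from at most 2370 to at least 3017.

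Rps7 was not the only member with such copies. A search for genes with at least 50% of their 31-base words in a member's transcripts found 301 copies, most of them processed pseudogenes, of which 229 had a mean of at least 1. They held 3.55% to 3.77% of the sum in WT and 3.54% to 3.82% in Sdc1-/-. For 15 members the copies held at least 20% of the joint signal. Rpl12, a protein at the base of the stalk, had only 572, 593 and 554 in WT and 630, 516 and 519 in Sdc1-/-, and 89.8% of its joint signal was assigned to copies, mainly Gm10275 with 5321, 5548 and 4926 against 4618, 4840 and 4657. Rpl5 had 85.0% of its joint signal in copies and Rpl27 71.8%. Levels of these genes alone therefore understate their families.

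With the copies added to their members, 75 of 80 were lower and 1 was higher, beside 31.9% and 30.1% of all genes, with a median of -0.24. Rpl12 then passed the test (log2 fold change -0.15, adjusted p = 0.0232), as did Rpl27 (-0.24, adjusted p = 0.000595). The third added call is Rpl41, whose copies hold none of its signal and whose log2 fold change stayed at -0.18, while its adjusted p went from 0.0545 to 0.0465 with 11926 instead of 12155 genes in the fit. Rps12, a small subunit protein with 6 copies, did not pass in either form with the deposited scaling. Its own values of 7289, 6065 and 7091 in WT and 7076, 6682 and 5521 in Sdc1-/- were the least even among libraries, but with copies they were 8412, 8701 and 8186 against 8419, 8541 and 8284. Its log2 fold change was then -0.003 (adjusted p = 0.948, limma), and the groups overlapped. With copies added, it was higher once libraries were rescaled to sum to 1000000 (0.15, adjusted p = 0.00476) and relative to the median member (0.28, adjusted p = 0.000382). In the 54 members with under 1% of the joint signal assigned to copies, 49 were lower and the median was -0.26.

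The P-stalk, which recruits the GTPase translation factors, had 3 of 3 proteins lower, beside 72 of all 80 members and 31.3% of all genes tested. Rplp0, its base, had 7913, 7557 and 7945 in WT and 6149, 5715 and 5641 in Sdc1-/- (log2 fold change -0.42, SE 0.04, adjusted p = 0.000206). Rplp1 had 8303, 7453 and 8073 against 6197, 5879 and 5950 (-0.40, SE 0.05, adjusted p = 0.000394). Rplp2 had 4618, 4310 and 4463 against 3817, 3713 and 3791 (-0.24, SE 0.04, adjusted p = 0.00104). The groups were apart for all 3, and the fall of Rplp2 was the smallest of them and became a difference of 0.023 under quantile normalization. Of the 5S particle, the precursor that binds Mdm2 when free, Rpl5 had 633, 661 and 630 against 541, 547 and 489 and Rpl11 5167, 5037 and 5126 against 4811, 4244 and 4026. Both were lower (adjusted p = 0.00197 and 0.0173), and Rpl11 was not once libraries were rescaled to sum to 1000000 (adjusted p = 0.273).

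After Rps7, the largest falls were those of Rps27, Rplp0, Rps15a and Rplp1. Rps27, a zinc finger protein of the small subunit, had 4943, 4867 and 4896 in WT and 3601, 3672 and 3501 in Sdc1-/- (log2 fold change -0.45, SE 0.03, adjusted p = 3.07e-05). Rps15a had 6190, 6558 and 6011 against 4645, 4712 and 4739 (-0.41, SE 0.04, adjusted p = 0.00014). Both stayed lower once libraries were rescaled to sum to 1000000, at -0.30 and -0.26. Genes mutated in Diamond-Blackfan anemia numbered 19 among the members. Of these 18 were lower, beside 72 of all 80 members and 31.3% of all genes tested. The median of the 19 was -0.26, beside -0.24 for all members, and Rpl27 did not pass. Rps19, the gene most often mutated in that disease, had 5502, 5212 and 5462 against 4320, 4444 and 4527 (-0.28, adjusted p = 0.000517). Rps24 was among those least changed, with 5849, 6098 and 5980 against 5181, 5439 and 5302 (-0.17, adjusted p = 0.00434). The 33 proteins found in the ribosomes of all domains of life had 32 lower with a median of -0.25, and the 44 members that are neither in that list nor paralogs had 39 lower with a median of -0.24.

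The 4 X-linked members were lower, as were 68 of the 76 autosomal ones, beside 31.3% of all genes tested. Rps4x, the X-linked form of a small subunit protein, had 4745, 4848 and 4627 in WT and 3605, 3727 and 3642 in Sdc1-/- (log2 fold change -0.37, SE 0.03, adjusted p = 8.58e-05). Rpl10, which joins the large subunit late in its maturation, had 4902, 4872 and 4685 against 3800, 3863 and 3817 (-0.33, adjusted p = 0.000129). Rpl39, a small protein of the exit tunnel, had 3056, 3393 and 2947 against 2576, 2593 and 2457 (-0.30). Rpl36a had 2312, 2327 and 2280 against 2071, 2087 and 2003, the smallest change of the 4 (-0.17, and 0.0695 under quantile normalization). Its autosomal retrocopy Rpl36al, outside the naming rule, had 1139, 1151 and 1103 against 1083, 1073 and 1052 (-0.08, adjusted p = 0.0519). Of the other ribosomal proteins outside the rule, the fusion gene Fau and the scaffold Rack1 were lower, with log2 fold changes of -0.32 and -0.27. The part of the difference in Y-linked transcripts in these values was not tested.

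Of the 3 paralogs among the members, 1 was higher, 1 was lower and 1 did not pass. Of all genes tested, 29.3% were higher and 31.3% lower. Rpl22l1, a paralog that can replace Rpl22 in the ribosome, had 799, 908 and 866 in WT and 936, 1053 and 1069 in Sdc1-/-, and was higher in Sdc1-/- (log2 fold change 0.25, SE 0.07, adjusted p = 0.015). Without the second Sdc1-/- library it no longer passed. Rpl22 had 1829, 1908 and 1788 against 1752, 1726 and 1676 and was lower by 0.10 on the log2 scale (adjusted p = 0.0456), a call lost when any library other than the third of WT was left out, and a difference of 0.05 (adjusted p = 0.253) once libraries were rescaled to sum to 1000000. The ratio of Rpl22l1 to Rpl22, which no scaling between libraries can move, was 0.437, 0.476 and 0.485 in WT and 0.534, 0.610 and 0.638 in Sdc1-/-. The groups did not overlap, and the exact two-sided permutation test gave p = 0.1, the smallest that 3 against 3 allows (adjusted over the 2 ratios, 0.1). Rps27l, a paralog of Rps27 that p53 induces, had 854, 875 and 859 against 747, 833 and 921, and the groups overlapped. Its ratio to Rps27 was 0.173, 0.180 and 0.176 in WT and 0.208, 0.227 and 0.263 in Sdc1-/- (exact permutation p = 0.1, adjusted 0.1). On its own Rps27l had a log2 fold change of -0.05 (adjusted p = 0.535, limma), and Rps27 one of -0.45. Rpl7l1, which is needed for making the large subunit, had a low level of 144, 148 and 144 against 133, 137 and 131, and its ratio to Rpl7 was between 0.0249 and 0.0266 in WT and between 0.0258 and 0.0270 in Sdc1-/-. The tissue-restricted Rpl3l, Rpl10l and Rpl39l were at most 0.397 in any library.

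**Figure D4:**
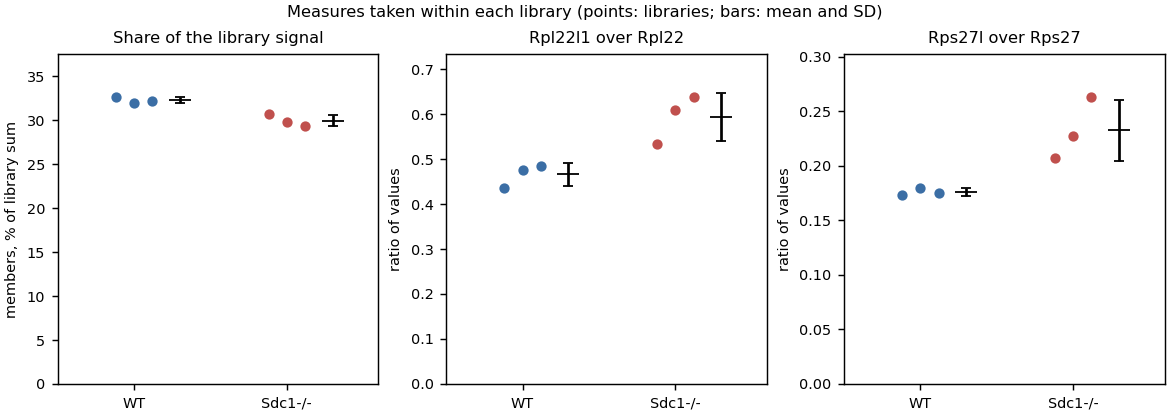
Share of the 80 members in the library sum (percent), and the ratios Rpl22l1 over Rpl22 and Rps27l over Rps27, with a point for each library and bars for the mean and SD of 3. The share runs from 32.0% to 32.6% in WT and from 29.4% to 30.7% in Sdc1-/-, and both ratios are higher in every Sdc1-/- library than in any WT library.

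Since 72 members were lower, proportions of members to each other were compared with every library set to the same median member, a comparison chosen after seeing the data. Then 8 members were lower and 19 higher, beside 11.5% and 58.0% of all genes. Those lower were Rps7, Rps27, Rplp0, Rps15a, Rplp1, Rps6, Rpsa and Rpl8, and all but Rps7 differed by less than 0.18 on the log2 scale. With copies added, 6 were lower and 24 higher, while the median of all genes in that fit was 0.27. Shares of all genes called were not counted for it. Rps7 was there at -0.13 (adjusted p = 0.00668) and Rpl12 at 0.13. Rps6 (-0.01, adjusted p = 0.687) and Rpl8 (-0.09, adjusted p = 0.0513) then no longer passed. Among the 19 higher without copies were Rpl22l1 (0.52), Rpl7a (0.22), Rpl12 (0.22), Rpl36 (0.20) and Rpl22 (0.17). The other 53 members did not pass in either direction.

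Other genes of the pathway were read from lists, whose counts stand beside 31.3% of all genes lower and 29.3% higher. Of 16 other mRNAs with an oligopyrimidine start, 9 were lower and 5 higher. The elongation factor Eef1a1 had 16586, 16660 and 16863 in WT and 13806, 13367 and 12681 in Sdc1-/- (log2 fold change -0.33, adjusted p = 0.000448), and Tpt1 was lower by 0.28 on that scale. Vim, an intermediate filament, had the largest fall of the list (-0.59), and Eef1d the largest rise (0.35). Of 42 ribosome biogenesis factors, 7 were lower and 22 higher, with a median of 0.16 and sums of 5069 to 5186 in WT and 5872 to 5906 in Sdc1-/-. Nucleolin (Ncl) had 749, 803 and 756 against 1042, 1061 and 1095 (0.47, adjusted p = 5.68e-05). Nop58, of the box C/D particle that methylates ribosomal RNA, was higher by 0.21, and Mdn1, the large ATPase that strips assembly factors, by 1.80. The kinase Riok2 had the largest fall (-0.46).

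Of 14 genes of RNA polymerase I and its factors, 1 was lower, Polr1d (-0.13), and 5 were higher, Taf1a the most (0.65). Of 8 chaperones of single ribosomal proteins, 2 were lower and 5 higher, with Nap1l1 at 0.20, Pdcd2l at 0.30 and Pdcd2 at -0.19. Of 15 regulators of ribosomal protein genes, 2 were lower and 8 higher. Myc had 128, 121 and 124 in WT and 145, 138 and 140 in Sdc1-/- (0.18, adjusted p = 0.00369), Mycn rose by 1.03, Trp53 by 0.36, and Mtor fell by 0.51. Of 16 p53 targets, 13 were lower and 0 higher in limma, with a median of -0.34. Bax was lower by 0.23 and Trp53inp1 by 1.24, while Aen was at 0.003. The 78 mitochondrial ribosomal protein genes, which build the separate ribosome of mitochondria, had 19 lower, 28 higher and a median of 0.01. Mrpl52 and Mrpl33 were the most abundant (log2 fold changes -0.15 and -0.08), Mrps23 fell most (-0.45) and Mrps25 rose most (0.67). Once libraries were rescaled to sum to 1000000, 1 of the 78 was lower and 49 higher, beside 19.5% and 43.5% of all genes. With that rescaling 5 of the 42 biogenesis factors were lower and 31 higher, and of the 14 polymerase I genes 0 and 11. For the 15 regulators these counts were 2 and 11, and for the 8 chaperones 0 and 5. The 16 p53 targets had 11 lower and 1 higher, and the 16 other oligopyrimidine mRNAs 7 and 6.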

How the data were processed

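RNA-seq was made from 150 ng of RNA per library with a stranded kit and read as single ends of 75 bases. The authors deposited a signal per gene and library, TPM from kallisto rescaled between libraries. The design had been written for TPM, and its test was used for these values too. The submitters' processing notes name kallisto, sleuth 0.30.0 and mm10. The authors also deposited p-values, q-values, effect sizes and variances from sleuth, which were not used here. Read depth is unknown, so no counting interval can be given.

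Identifiers of 35454 of the 36083 genes were matched to GENCODE M21 (GRCm38). All 12155 genes whose mean reached 1 were fitted on log2(value + 1) by limma 3.58.1 (R 4.3.3). The fit had no covariate beside group, used a variance trend and Benjamini-Hochberg adjustment at 0.05, and was tested on simulated data. Ratios were compared with exact permutation tests. Python 3.11.15, numpy 2.4.6, pandas 2.3.3, scipy 1.17.1 and matplotlib 3.10.9 were used. The members, gene lists and tests were chosen with earlier results of these data known. Genes named are the 10 most abundant members, the 5 largest falls and rises among those called, the paralogs, P-stalk, 5S particle, X-linked and Diamond-Blackfan lists, and from each other list the 2 most abundant genes and the largest fall and rise. Rps6, Rpl12, Rpl7a, Rpl36 and others outside that rule were named after their values were seen. Of 22 alternative fits, 17 were planned, and the addition of copies, the correction for GC content and length and the scaling to the members were chosen after seeing the data. Protein sequences were not used here, and values of a few genes are not reported here.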

Additional observations from a re-analysis of the deposited data

How the results depend on the processing

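With a sum of 1000000 per library, 38 members were lower and 2 higher, and the median log2 fold change was -0.095. With quantile normalization these were 13, 6 and -0.0002, with a sum of 1000000 over the other genes 46 lower and -0.14, and with copies added and a sum of 1000000 they were 45, 3 and -0.091. Removal of the GC and length trend gave a median of -0.19. Leaving out each library gave 63 to 74 lower, 0 to 1 higher and medians of -0.26 to -0.23. Relative to the median of all genes, these medians were -0.25 to -0.22. Shares of all genes called were not counted for these fits. They were also not counted for the sum over the other genes or for copies added with a sum of 1000000. The cause of the differences between fits was not tested. Of 43 named members under 20 alternatives, 743 of 860 values kept direction and side of the threshold, 62 lost the threshold, 13 gained it and 42 changed sign. Under a sum of 1000000 the sign changed for Rps12 (0.0605), Rps2 (0.034), Rpl27 (0.0024), Rpl7l1 (0.0282), Rps27l (0.094), Rpl12 (0.0976), Rpl36 (0.075), Rpl22 (0.0485) and Rpl7a (0.1001, called higher). With copies added as well, it changed for Rps12 (0.146, called higher), Rps2 (0.0339), Rpl7l1 (0.0282), Rps27l (0.094), Rpl36 (0.0766), Rpl22 (0.0485) and Rpl7a (0.1016, called higher), and over the other genes for Rps12 (0.0125), Rps27l (0.046), Rpl12 (0.0496), Rpl7a (0.0521), Rpl36 (0.027) and Rpl22 (0.0005). Under quantile normalization it changed for Rpl41 (0.0435), Rpl13a (0.0149), Rps12 (0.19), Rps2 (0.098), Rplp2 (0.023), Rpl11 (0.0255), Rpl36a (0.0695), Rps24 (0.041), Rpl18 (0.0317), Rpl26 (0.096, called higher), Rpl27 (0.0119), Rpl35 (0.0066), Rpl35a (0.0539), Rpl12 (0.0509), Rpl7a (0.1723, called higher), Rpl36 (0.1456), Rpl22 (0.1622, called higher) and Rpl7 (0.0581). With a library left out, Rps12 ran from -0.17 to 0.0175 (without the third Sdc1-/- library) and Rps27l from -0.13 to 0.022 (without the first). The replicate block kept 72 lower and 1 higher. Without the minimum mean 56 were lower and 1 higher, and without the variance trend 68 and 1. Shares of all genes called were not counted for these fits either. Libraries of one number did not deviate together (correlations of 0.15, -0.01 and 0.02), so the number was not taken to pair them. The share difference ran from -2.65 to -2.01 percentage points and the ratio differences kept their sign without any library. Read depth is unknown, so no counting limit can be given.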

Other observations

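Marker lists of other cells were read beside the members, and their counts stand beside 31.3% of all genes lower and 29.3% higher. Of 11 genes of leukemic progenitors, 6 were lower and 5 higher in Sdc1-/-, and their sum ran from 1336 to 1437 in WT and from 1051 to 1071 in Sdc1-/-. Mpo and Ctsg, granule enzymes of early myeloid cells, were the most abundant (log2 fold changes -0.39 and -0.64), Flt3 had the largest fall (-0.70) and Meis1 the largest rise (1.07). Of the 10 mature neutrophil genes, S100a8 and S100a9 were the most abundant (-1.50 and -1.52), Mmp9 had the largest fall (-1.92) and Camp the smallest (-0.46). Of 9 monocyte and macrophage genes, 7 were lower and 1 higher, with sums of 75.1 to 80.04 in WT and 39.7 to 41.7 in Sdc1-/-. Cd68 and Adgre1 led that list (-1.43 and -1.06), and Cx3cr1 was higher by 0.27. Of 9 erythroid genes tested, 7 were lower and 2 higher, with Hbb-bt at -0.76, Hbb-bs at -0.67, Hba-a2 at -1.43 and Klf1 at 0.21.

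Of 4 megakaryocyte genes, 3 were lower (Itga2b, Gp9 and Ppbp, -0.26 to -0.39) and Pf4 was higher by 0.20. B cell markers were near 0, with 2 of 7 tested, Cd79b (-0.08) and Vpreb1 (0.11), and neither passed in limma. Of 8 T and NK cell genes only Nkg7 reached the minimum mean (-0.25), and Cd3d had a mean of 0.632. Of 5 genes of stroma and endothelium, Pecam1 (-0.23) and Pdgfrb (-0.68) were tested and lower. The Y-linked list was led by Eif2s3y (5.59) and Ddx3y (3.79), with Kdm5d lowest (2.63). Of 8 host RNAs of small nucleolar RNAs with an oligopyrimidine start, 0 were found in the table by symbol.

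Copies of Rps12 differed within groups. The copy Rps12-ps3 had 675, 1043 and 544 in WT and 694, 803 and 1676 in Sdc1-/-, so that its highest value stood in the library with the lowest Rps12.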
